A study of Mus musculus with 11 samples.

Results

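The myosin light chains are small subunits that wrap the neck of the myosin heavy chain, and the genes followed here are *Myl1*, *Myl2*, *Myl3*, *Myl4*, *Myl6*, *Myl6b*, *Myl9*, *Myl10* and *Mylpf*. They were chosen by name, as the fast, slow, atrial and non-muscle isoforms of the family, and make 9 of the 22384 genes in the table of read counts. The study sequenced polyadenylated RNA of intact muscle spindles and of adjacent extrafusal muscle from the deep masseter, a jaw muscle of the mouse. Spindle samples (mice 9, 10, 12, 13 and 16, n = 5) were bundles of spindles picked by their fluorescence, and muscle samples (the same mice and mouse 11, n = 6) were extrafusal fibers beside them.

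The sources describe all mice as *Piezo2*EGFP-IRES-Cre;*Rosa26*tdTomato, so that both groups carried a Cre under control of the *Piezo2* gene and the tdTomato reporter. The age of the mice used for RNA was not given in the sources used here. The reporter marked intrafusal fibers and capsule cells as well as sensory neurons. A spindle library therefore held RNA of whole organs, with intrafusal fibers, capsule, nerve endings and any muscle carried along, and it cannot be assigned to one cell type. In such bulk samples, fewer cells of a type and less RNA per cell cannot be told apart.

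Each myosin heavy chain carries a regulatory and an essential light chain. Regulatory chains can be phosphorylated by myosin light chain kinases and tune force or switch on contraction, while essential chains stabilize the lever arm and affect its speed. Adult fast fibers use MYLPF and MYL1, slow fibers and the heart ventricle use MYL2 and MYL3, and the atrium and embryonic muscle use MYL4. Intrafusal fibers are known for mixing slow, fast, cardiac and developmental myosin heavy chains within a fiber.

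The upstream stretches shown are of a slow chain, of the member most abundant per length in spindle after the fast pair, and of the fast regulatory chain. They were picked because these genes differed in direction or in size of change. Each is read on the coding strand from 5′ to 3′ and covers 200 bases that end 51 bases before the RefSeq start (build GRCm38.p6), at chr9:110763428-110763627 for *Myl3*, chr5:136692896-136693095 for *Myl10* and chr7:127211358-127211557 for *Mylpf*. Capitals mark matches, on either strand, to the CArG box, to the MCAT motif CATTCC or to the MEF2 core.
*Myl3*: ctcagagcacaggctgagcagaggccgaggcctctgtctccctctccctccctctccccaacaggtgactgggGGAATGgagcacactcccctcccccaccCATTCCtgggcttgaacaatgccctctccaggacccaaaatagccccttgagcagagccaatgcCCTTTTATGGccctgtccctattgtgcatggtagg
*Myl10*: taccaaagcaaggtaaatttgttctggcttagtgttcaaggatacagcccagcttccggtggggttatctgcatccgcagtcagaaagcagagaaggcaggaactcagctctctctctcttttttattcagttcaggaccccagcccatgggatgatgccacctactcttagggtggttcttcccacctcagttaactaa
*Mylpf*: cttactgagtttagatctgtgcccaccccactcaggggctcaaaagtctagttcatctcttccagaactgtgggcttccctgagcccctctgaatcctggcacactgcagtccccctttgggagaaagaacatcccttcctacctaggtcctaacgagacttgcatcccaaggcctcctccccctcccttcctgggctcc
Within the full RefSeq windows, from 250 bases before to 50 bases after the start, *Myl3* had 2 MCAT matches at -177 and -149 and 1 CArG match at -85 from the start. *Myl9* had a CArG match at -161 and *Myl1* an MCAT match at -80, and the window of a second *Myl6* start had a CArG match at -50, while the *Myl4* window held no match to any of the motifs. The full windows of *Mylpf* and of the *Myl10* start shown held no match other than E-boxes (CANNTG), and *Myl3* also held an E-box. The E-boxes of *Myl10* lie at 12 and 19 from the start and that of *Mylpf* at -51, so neither printed stretch holds a whole one. The windows of the other *Myl10* starts held no match to any of the motifs. Among 32851 such windows of all genes, 14.7% held MCAT, 1.63% a CArG box, 3.19% the MEF2 core and 72.3% an E-box. The motifs can overlap one another, and a match describes letters and not a bound site.

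The libraries held between 8354260 and 23430654 counts, of which the light chains made up 0.904% to 1.29% in spindle and 1.13% to 1.60% in muscle. Mitochondrial transcripts made up 22.6% to 38.2% of spindle libraries and 16.7% to 24.8% of muscle libraries. Odorant receptor genes summed to 17.2 to 228 CPM in spindle and 9.22 to 63.3 CPM in muscle. The intrafusal markers *Myh3*, *Myh6*, *Myh7* and *Myh7b* summed to 582 to 1000 CPM in spindle and 2.25 to 7.38 CPM in muscle, and all 4 were called higher in spindle. Counts were scaled by TMM, a correction for library composition, and compared with edgeR's quasi-likelihood test. Calling a gene higher or lower required a Benjamini-Hochberg adjusted p of 0.05 or less, a log2 fold change (spindle over muscle) of 1 or more in size, and 5 or more normalized counts on average. Values are normalized counts, which are reads scaled to the mean effective library, unless another unit is named. On this scale the median over all 22384 genes was a log2 fold change of 0.29, and with library size alone it was 0.60.

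Of the 9 light chains, 6 were called higher in spindle, namely *Myl2*, *Myl3*, *Myl10*, *Myl4*, *Myl6b* and *Myl9*. Of all genes, 11.3% were called higher. No member was called lower (0 of 9, against 1.80% of all genes), by edgeR, by DESeq2 or by limma-voom, although *Mylpf* and *Myl1* both had an unadjusted p under 0.05 with lower values in spindle. *Myl6*, *Myl1* and *Mylpf* were not called because their log2 fold changes stayed under 1 in size. By adjusted p alone, 7 members were higher (23.6% of all genes) and 2 were lower (15.0% of all genes). The 5 spindle libraries lay above all 6 muscle libraries for 7 members, as they did for 9.15% of all genes, and below them for 2 members, as they did for 8.65% of all genes. The median log2 fold change of the members was 4.97. When the median of all genes was set to 0, 5 members were called higher and 2 lower, since *Myl9* then fell short of the minimum and *Mylpf* and *Myl1* reached it. Of all 22384 genes, 2113 were then called higher and 1084 lower. That shift moved the fold changes alone, and the p-values remained those of the unshifted test.

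**Figure D1:**
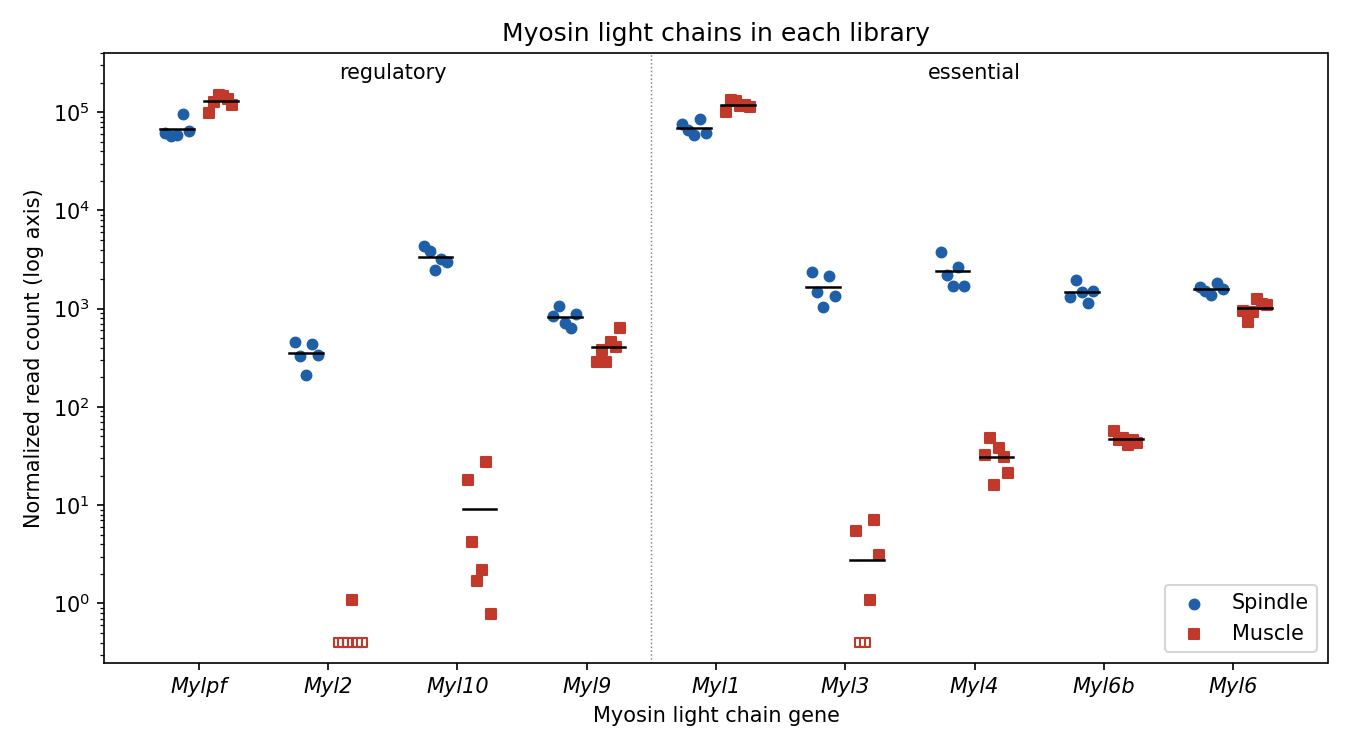
Normalized read count (log axis) of each myosin light chain gene in each library, with 5 spindle libraries (blue circles) left of 6 muscle libraries (red squares) and the mean as a black bar. Open symbols near the bottom stand for libraries with 0 reads, drawn at 0.4, and the bar is left out where the mean is below that. For every gene the spindle and muscle libraries do not overlap, and *Mylpf* and *Myl1* are the genes that lie lower in spindle.

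Among the regulatory chains, *Myl2*, the slow and ventricular isoform, had the largest fitted fold change of the 2529 genes called higher by edgeR, a rank that rests on a single read in muscle and did not hold under limma-voom. Its normalized counts were 459.7, 326.6, 212.9, 436.4 and 337 in spindle of mice 9, 10, 12, 13 and 16, against a lowest and median value of 0 and a highest value of 1.087 in muscle. The muscle libraries together held 1 read of *Myl2*, in mouse 12, against 1606 reads in the spindle libraries. All spindle libraries were thus far above the muscle libraries, and the muscle value rests on that single read. Reads pooled over the libraries of a tissue and divided by their pooled effective library size gave a ratio of 2100, spindle over muscle, with an exact 95% interval of 377 to 83200 that covers counting error only. The fitted log2 fold change was 10.27 ± 0.40 (SE, adjusted p = 6.55e-13, edgeR), and its size depends on the prior count at such low values. The SE, derived from the F statistic, is narrow for a single muscle read, as DESeq2 gave an SE of 0.87 and limma-voom 0.72. Without muscle of mouse 12 the log2 fold change was 11.47, with 0 reads in muscle. By limma-voom it was 9.13, below the limma-voom values of *Myl3* (9.44) and *Myl10* (9.33). *Myl2* lies at chr5:122100951-122113472 on the plus strand (GRCm38). Of its exonic bases, 3.08% overlap *Ccdc63* on the other strand, so those reads could not be told apart without strand information.

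*Myl10*, a regulatory chain whose product is known from precursor lymphocytes, was per length the most abundant member in spindle after the fast pair. It had normalized counts of 4382, 3896, 2462, 3181 and 3011 in spindle of mice 9, 10, 12, 13 and 16, against 0.7804, 3.186 and 27.7 as the lowest, median and highest values in muscle. The groups were far apart. In muscle, mice 9 and 13 held 20 and 35 reads, and the other 4 muscle libraries held 1 or 2 reads each. The log2 fold change was 8.42 ± 0.62 (SE, adjusted p = 5.54e-06, edgeR), a fitted 343-fold difference. Without muscle of mouse 13 it was 9.23, and limma-voom gave 9.33. *Myl10* ranked 11 of the 2529 genes called higher by fold change. The gene lies at chr5:136693146-136701094 on the plus strand, and no other gene overlaps its exons.

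The muscle libraries of mice 9 and 13 also held more reads of some other genes that were high in spindle, but not of all. *Myh7b*, a slow and cardiac heavy chain, had 26 and 47 reads there, against 3 to 12 reads in the other muscle libraries, and *Myh13*, the extraocular heavy chain, had 48 and 126 reads against 5 to 23. *Myl3* followed the same libraries, with 6 and 9 of its 20 muscle reads. *Myh3*, the embryonic heavy chain, had 61 and 62 reads there but 68 in muscle of mouse 12. Its normalized counts there, 55.21 and 49.06, were below those in muscle of mice 10 (69.25) and 12 (73.91). *Myl4* had 36 and 39 reads against 19 to 35 in the others. Its normalized counts of 32.59 and 30.86 were, however, below those in muscle of mice 10 (48.27) and 12 (38.04). The part that carried-over spindle tissue had in these values was not tested.

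Markers of lymphocytes were measured because of this background. Of 9 such markers, 6 were in the table and 4 were called higher in spindle (2 with the filterByExpr filter and 2 without spindle of mice 10, 12 and 13), and their sum was 3.92 to 12.0 CPM in spindle and 1.39 to 3.47 CPM in muscle. *Igll1*, the surrogate light chain of precursor B cells, had 93 reads in spindle and 1 in muscle (log2 fold change 6.36 ± 0.85, adjusted p = 1.35e-05, edgeR). The B cell receptor gene *Cd79a* had 14 reads in spindle and 16 in muscle. Per length, *Igll1* was at 0.685 RPKM and *Myl10* at 173 RPKM in spindle, and the part of lymphocytes in the *Myl10* level was not tested.

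*Mylpf*, the regulatory chain of fast fibers, was lower in spindle but missed the minimum fold change. Its normalized counts were 61640, 57670, 58110, 95660 and 63630 in spindle of mice 9, 10, 12, 13 and 16, against 98540, 131800 and 149900 as the lowest, median and highest values in muscle. The groups did not overlap, with spindle of mouse 13 standing apart from the other spindle libraries and closest to the muscle range. The log2 fold change was -0.94 ± 0.16 (SE, adjusted p = 1.89e-04, edgeR), or 0.521 of the muscle level. Without spindle of mouse 13 it was -1.10, and without muscle of mouse 9 it was -1.02, so that *Mylpf* was called lower in both cases. Without spindle of mice 10, 12 and 13 it was -1.04, with the same result. The gene lies at chr7:127208890-127214298 on the plus strand.

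*Myl9*, the regulatory chain of smooth muscle and non-muscle cells, was higher in spindle by a fold close to the minimum. It had normalized counts of 841.6, 1071, 715.8, 635.1 and 882.6 in spindle of mice 9, 10, 12, 13 and 16, against 289.3, 391.2 and 629 in muscle as lowest, median and highest. The lowest spindle library, of mouse 13, was just above the highest muscle library, of mouse 16. The log2 fold change was 1.02 ± 0.19 (SE, adjusted p = 3.83e-04, edgeR). With the mouse as a replicate block it was 0.95 (adjusted p = 5.12e-05), and without spindle of mouse 10 or muscle of mouse 9, 10 or 11 it was 0.91, 0.93, 0.98 and 0.93, which ended the call each time. Over all alternatives the adjusted p of *Myl9* stayed between 2.03e-06 and 0.00643.

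Of 9 markers of smooth muscle and pericytes, 2 were called higher in spindle and none lower, with a median log2 fold change of 0.04. These were *Acta2* (1.60 ± 0.21, adjusted p = 2.16e-05) and *Tagln* (1.49 ± 0.49, adjusted p = 0.0222, edgeR), which encode smooth muscle actin and transgelin. *Tagln* had 92 reads in spindle and 42 in muscle, and its groups overlapped. Of its exonic bases, 67.86% overlap *Gm48529* and *Pcsk7* on the other strand, so its value is uncertain. With the mouse as a replicate block, *Tagln* was no longer called (1.33, adjusted p = 0.0643), nor was it without spindle of mouse 10 (adjusted p = 0.0601), muscle of mouse 9 (0.0574) or muscle of mouse 11 (0.0533), which left 1 of 9 higher. With the median gene set to 0, *Abcc9*, a potassium channel subunit of pericytes, was called lower (-1.18). The smooth muscle heavy chain *Myh11* had a log2 fold change of 0.54 ± 0.42 (adjusted p = 0.334). The sum of the markers was 656 to 913 CPM in spindle and 700 to 1070 CPM in muscle. Of 4 fibroblast markers, 2 were called higher in spindle, namely *Dcn* (1.62 ± 0.27) and *Pdgfra* (1.34 ± 0.17). *Col3a1* (0.99 ± 0.15, adjusted p = 6.48e-05, edgeR) fell just short of the minimum fold change, and its groups did not overlap. *Col1a1* (-0.04 ± 0.72, adjusted p = 0.972, edgeR) was not called either. DESeq2 and limma-voom called 3 of the 4 higher. The parts of vessels and of fibroblasts in the *Myl9* difference were not tested.

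Among the essential chains, *Myl3*, the slow and ventricular isoform, changed most. Its normalized counts were 2367, 1492, 1047, 2155 and 1344 in spindle of mice 9, 10, 12, 13 and 16, against 0, 2.104 and 7.122 as the lowest, median and highest values in muscle. Spindle of mice 9 and 13 were highest, as for *Myl2*, and no muscle library exceeded 9 reads. The log2 fold change was 8.99 ± 0.42 (SE, adjusted p = 5.35e-09, edgeR), which ranked 4 among the genes called higher. Pooled reads divided by pooled effective library size gave a ratio of 486, with an exact 95% interval of 315 to 796 for counting error. *Myl3* lies at chr9:110741861-110769798 on the plus strand, and 4.65% of its exonic bases overlap *Pth1r* on the other strand.

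*Myl4*, the essential chain of the atrium and of embryonic muscle, was higher in spindle and also present at a low level in every muscle library. It had normalized counts of 3754, 2225, 1702, 2650 and 1704 in spindle of mice 9, 10, 12, 13 and 16, against 15.93, 31.72 and 48.27 as the lowest, median and highest values in muscle. Spindle of mouse 9, the library with the fewest counts (8354260) and the highest mitochondrial share (38.2%), was above the other spindle libraries. *Myl4* had a log2 fold change of 6.33 ± 0.28 (SE, adjusted p = 2.06e-10, edgeR), a fitted 80.5-fold difference, and 6.12 without spindle of mouse 9. Muscle *Myl4* rested on 179 reads, 19 to 39 in each library. The gene lies at chr11:104550663-104595753 on the plus strand.

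*Myl6b*, an essential chain of slow muscle and non-muscle cells, and its neighbor *Myl6*, the main essential chain of smooth muscle and non-muscle cells, lie 11 bases apart on the minus strand of chromosome 10, at 128494157-128498685 and 128490860-128494145. *Myl6b* had normalized counts of 1318, 1940, 1461, 1137 and 1496 in spindle of mice 9, 10, 12, 13 and 16, against 41.3, 46.03 and 57.03 in muscle as lowest, median and highest. Both groups were narrow for this gene and far apart. Its log2 fold change was 4.97 ± 0.16 (SE, adjusted p = 3.26e-14, edgeR), a fitted 31.3-fold difference.

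*Myl6* had normalized counts of 1680, 1515, 1377, 1812 and 1582 in spindle of mice 9, 10, 12, 13 and 16, against 724, 1021 and 1260 in muscle as lowest, median and highest. The groups did not overlap, yet the log2 fold change of 0.66 ± 0.14 (SE, adjusted p = 0.00106, edgeR) was below the minimum. Per exonic length, the ratio of *Myl6* to *Myl6b* was 0.453 to 0.924 across spindle libraries and 9.09 to 17.7 across muscle libraries, and these ranges were far apart. Which of the pair was more abundant in spindle rested on the length, since *Myl6b* exceeded *Myl6* per length in 5 of 5 spindle libraries but in reads in 2 of 5. In muscle *Myl6* exceeded *Myl6b* on both scales. Of the 84-base windows of *Myl6* transcripts, 4.70% also occur in pseudogenes, and reads from those windows could be lost under unique alignment.

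*Myl1*, the essential chain of fast fibers, was lower in spindle by adjusted p but was not called. It had normalized counts of 75110, 66520, 58640, 85770 and 61590 in spindle of mice 9, 10, 12, 13 and 16, against 99520, 117700 and 132100 in muscle as lowest, median and highest. The groups did not overlap, and spindle of mouse 13 was again the highest of its group. For *Myl1* the log2 fold change was -0.77 ± 0.14 (SE, adjusted p = 3.30e-04, edgeR), or 0.586 of the muscle level. *Myl1* lies at chr1:66924295-66945404 on the minus strand and makes a long and a short protein from alternative promoters, which counts per gene do not separate. Of its 84-base transcript windows, 6.77% also occur in the pseudogene *Mylf-ps*.

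**Figure D2:**
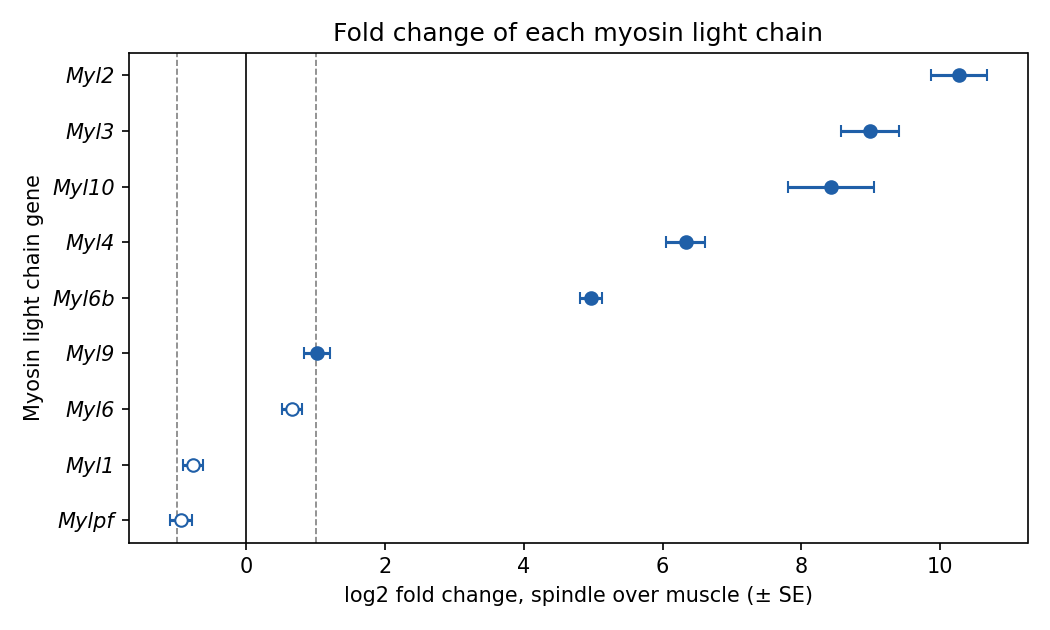
Log2 fold change of each myosin light chain, spindle over muscle, with an SE derived from the F statistic of edgeR (x axis). Genes are ordered by size from the top. Filled points were called and open points were not. Dashed lines mark the minimum of 1 in size, and the solid line marks 0. *Myl2* is at 10.27 and *Mylpf* at -0.94, with *Myl9* just beyond the dashed line.

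The isoforms can be set side by side on reads per length of exon and per size of the effective library (RPKM). In spindle the order of mean levels was *Mylpf* at 3890, *Myl1* at 2060, *Myl10* at 173, *Myl3* at 50.5, *Myl6b* at 48.9, *Myl9* at 43.8, *Myl4* at 31.9, *Myl6* at 30.7 and *Myl2* at 11.2 RPKM. The steps around *Mylpf*, *Myl1* and *Myl10* and the step from *Myl6* down to *Myl2* were larger than the spread, as the ranges over libraries did not overlap. The neighbors from *Myl3* to *Myl6* had overlapping ranges, and *Myl3* exceeded *Myl6b* in 2 of 5 spindle libraries.

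In muscle the order was *Mylpf* at 7470, *Myl1* at 3510, *Myl9* at 21.5, *Myl6* at 19.5 and *Myl6b* at 1.56 RPKM. The other members followed, with *Myl10* at 0.465, *Myl4* at 0.412, *Myl3* at 0.0839 and *Myl2* at 0.0057 RPKM. *Myl9* and *Myl6* had overlapping ranges in muscle, each above the other in 3 of 6 libraries, and so did all neighbors from *Myl6b* down. Thus *Mylpf* and *Myl1* led in both tissues, whereas the third member was *Myl10* in spindle and *Myl9* in muscle. *Myl12a*, a light chain outside the 9 members, was at 83.2 RPKM in spindle and 61.2 RPKM in muscle.

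Shares of the regulatory chains of a library were taken per length over the members *Mylpf*, *Myl10*, *Myl9* and *Myl2* alone. They left out the regulatory chains *Myl12a* (83.2 RPKM in spindle and 61.2 RPKM in muscle) and *Myl12b* (14.1 and 7.19 RPKM). On this basis *Mylpf* made 94.3% ± 1.61 in spindle and 99.7% ± 0.0983 in muscle (SD, with 5 and 6 libraries). *Myl10* made 4.33% ± 1.28 in spindle and 0.00666% ± 0.00814 in muscle. *Myl9* made 1.12% ± 0.353 in spindle and 0.292% ± 0.102 in muscle. *Myl2* made 0.273% ± 0.0686 of the regulatory chains in spindle, and *Myl10* was 11.8 to 19.3 times as abundant as *Myl2* per length in each spindle library. The slow regulatory chain thus had the smallest share of the 4 in spindle.

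As a share of the essential chains, *Myl1* made 92.7% ± 0.701 in spindle and 99.4% ± 0.151 in muscle (SD, with 5 and 6 libraries). *Myl6b* made 2.27% ± 0.657, *Myl3* 2.23% ± 0.467, *Myl4* 1.42% ± 0.365 and *Myl6* 1.39% ± 0.0991 of them in spindle. The same genes made 0.0447% ± 0.00951, 0.00254% ± 0.0027, 0.0117% ± 0.00421 and 0.558% ± 0.126 in muscle. *Myl4* was 0.542 to 0.716 times as abundant as *Myl3* per length in each spindle library, and below it in all 5. This order turned round in reads, where *Myl4* made 3.10% and *Myl3* 2.15% of the essential chains. Shares do not depend on library scaling, but they rest on the length over all annotated exons, which is too long for a gene that does not use them all.

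**Figure D3:**
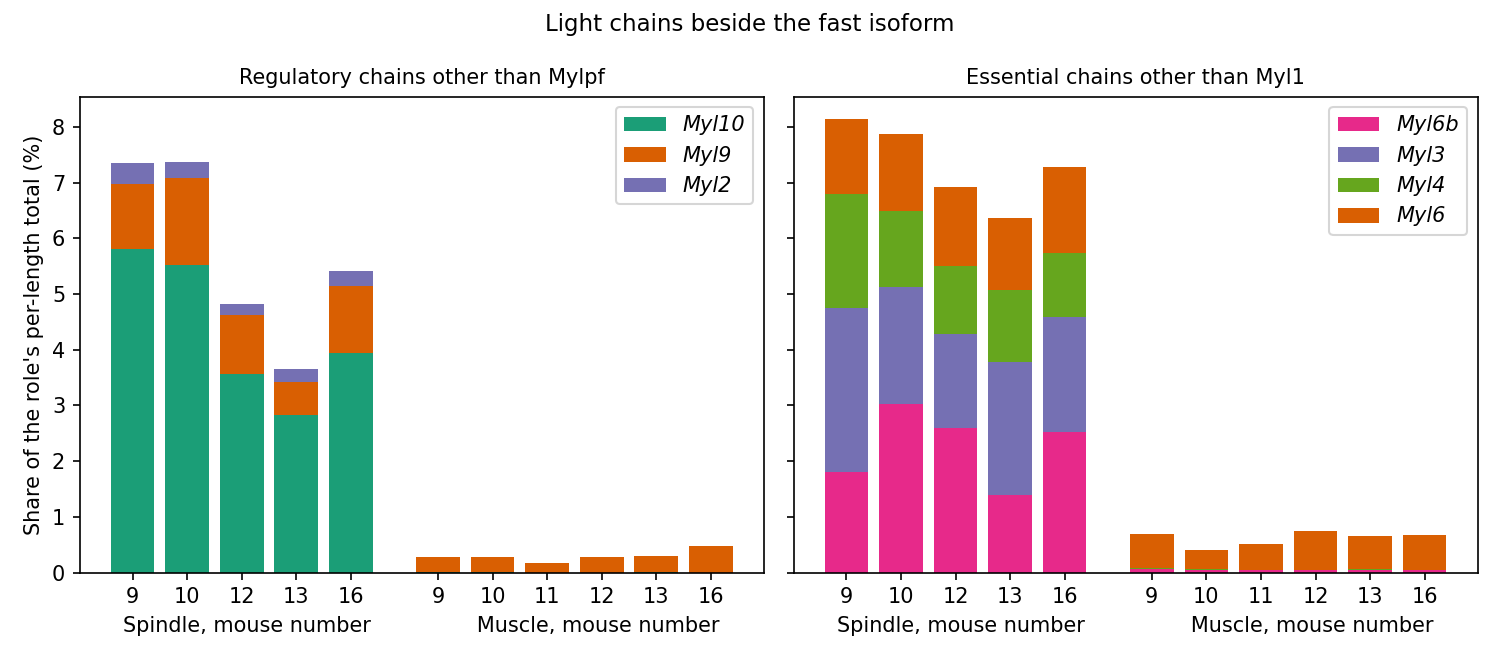
Share of each light chain other than the fast isoform in the per-length total of its role (y axis, percent), as stacked bars for 5 spindle libraries at the left and 6 muscle libraries at the right of each panel, named by mouse. The left panel shows regulatory chains other than *Mylpf* and the right panel essential chains other than *Myl1*. Totals cover the members alone, so the left panel leaves out *Myl12a* and *Myl12b*. In spindle *Myl10* is the main part of the left panel, from 2.83% to 5.81%, and in muscle *Myl9* and *Myl6* make nearly the whole of the low bars.

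The summed regulatory members, without *Myl12a* and *Myl12b*, were 4120 ± 918 RPKM in spindle and 7492 ± 1094 RPKM in muscle (SD, n = 5 and 6). The summed essential chains were 2220 ± 345.9 RPKM in spindle and 3533 ± 353.2 RPKM in muscle. The ratio of regulatory to essential members was 1.59 to 2.12 in spindle and 1.89 to 2.42 in muscle. These ranges overlapped, but within each of the 5 mice the ratio was lower in spindle (1.59 against 1.93, 1.68 against 1.89, 1.89 against 2.42, 2.12 against 2.22 and 1.98 against 2.02 in mice 9, 10, 12, 13 and 16). For the fast pair alone, *Mylpf* over *Myl1* was lower in spindle of mice 9, 10, 12 and 13. In mouse 16 it was 2.02 in both tissues.

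Each spindle library was also set against the muscle library of its own mouse, as a log2 ratio of CPM with a prior count of 2. *Myl2*, *Myl3*, *Myl4*, *Myl6*, *Myl6b*, *Myl9* and *Myl10* were higher in spindle in 5 of 5 mice, and *Myl1* and *Mylpf* were lower in 5 of 5. The ratio of *Myl10* varied most, with 7.77, 9.30, 9.21, 6.74 and 10.08 in mice 9, 10, 12, 13 and 16. Its lowest ratios were those of mice 13 and 9, whose muscle held most of the *Myl10* reads of muscle. The ratio of *Myl6b* was 4.48 to 5.33 and that of *Myl4* 5.41 to 6.76. *Myl9* had 1.53 and 1.51 in mice 9 and 10 but 0.49 to 0.66 in the other 3 mice.

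**Figure D4:**
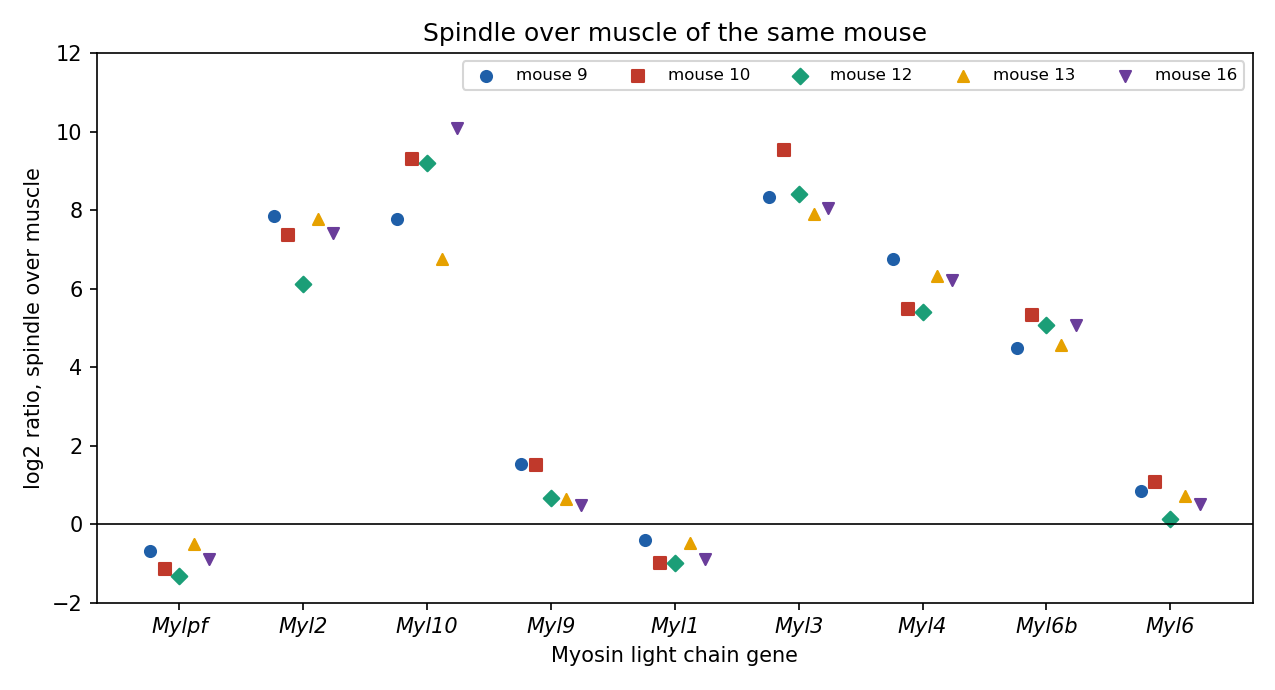
Log2 ratio of spindle over muscle of the same mouse (y axis, from CPM with a prior count of 2) for each myosin light chain gene, with a symbol for each of the 5 mice. All points of *Mylpf* and *Myl1* lie below 0 and those of the other genes above 0, with *Myl10* spread from 6.74 to 10.08.

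Other transcripts of fast extrafusal fibers were set beside the fast pair, with no test of the difference between genes. Of 7 genes listed for such fibers, 5 were called lower in spindle, and their sum was 19200 to 27600 CPM in spindle and 51900 to 60000 CPM in muscle. With the mouse as a replicate block 4 were called lower, since *Tnnt3* was then at -0.99. DESeq2, RLE size factors and the filterByExpr filter also gave 4, as did leaving out spindle of mouse 9 or 10 or muscle of mouse 11. With library size alone 3 were called lower, and with the median gene set to 0 there were 6. *Mybpc2*, fast myosin binding protein C, had a log2 fold change of -4.08 ± 0.65, *Actn3*, the actinin of fast fibers, -3.14 ± 0.30, and *Pvalb*, the calcium buffer parvalbumin, -2.51 ± 0.22. The fast troponins *Tnnt3* and *Tnni2*, at -1.01 ± 0.13 and -0.74 ± 0.14, had values close to those of *Mylpf* and *Myl1*. *Myh4*, the fast type IIB heavy chain that is on the same list, was higher in spindle (3.47 ± 0.46, adjusted p = 2.81e-04, edgeR). How much of the *Mylpf* and *Myl1* reads in spindle came from extrafusal fibers carried along was not tested.

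The heavy chains that pair with these light chains split within the fast class. All 4 slow and cardiac heavy chains were called higher in spindle, with *Myh7*, the slow and ventricular one, at 8.79 ± 0.34 and *Myh6*, the atrial one, at 8.42 ± 0.49 on the log2 scale. Of 4 fast heavy chains, *Myh13* (8.68 ± 0.66) and *Myh4* were called higher and *Myh1*, the type IIX chain, was called lower (-5.16 ± 0.68, adjusted p = 3.54e-04, edgeR). *Myh2*, the type IIA chain, had a log2 fold change of -0.41 ± 0.21 (adjusted p = 0.112). The developmental chains went opposite ways, as embryonic *Myh3* was higher (5.24 ± 0.27) and perinatal *Myh8* lower (-3.12 ± 0.34). None of 4 smooth and non-muscle heavy chains was called by edgeR. Among them *Myh10* had a log2 fold change of 0.95 ± 0.18 (adjusted p = 5.61e-04), the only one of the 4 with an adjusted p at most 0.05, and DESeq2 called 1 of the 4.

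The enzymes that act on regulatory light chains were mostly not called. Of 12 kinase and phosphatase genes, 1 was called higher, 2 lower and 9 not, with a median log2 fold change of 0.09. *Mylk3*, the cardiac light chain kinase, was higher, with 219, 260.9, 183.7, 181.6 and 191.6 normalized counts in spindle of mice 9, 10, 12, 13 and 16, against 0.7804, 11.59 and 29.38 as the lowest, median and highest values in muscle. Its groups were well apart, and its log2 fold change was 4.29 ± 0.43 (adjusted p = 4.52e-06, edgeR). *Mylk2*, the skeletal muscle kinase, was lower, with 1897 to 5144 normalized counts in spindle and 9078 to 13190 in muscle (-1.65 ± 0.21, adjusted p = 1.09e-05). *Mylk4*, a further striated muscle kinase, was lower with overlapping groups (-1.76 ± 0.37, adjusted p = 0.00367, edgeR). *Mylk*, the smooth muscle kinase, had a log2 fold change of 0.33 ± 0.23 (adjusted p = 0.25).

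**Figure D5:**
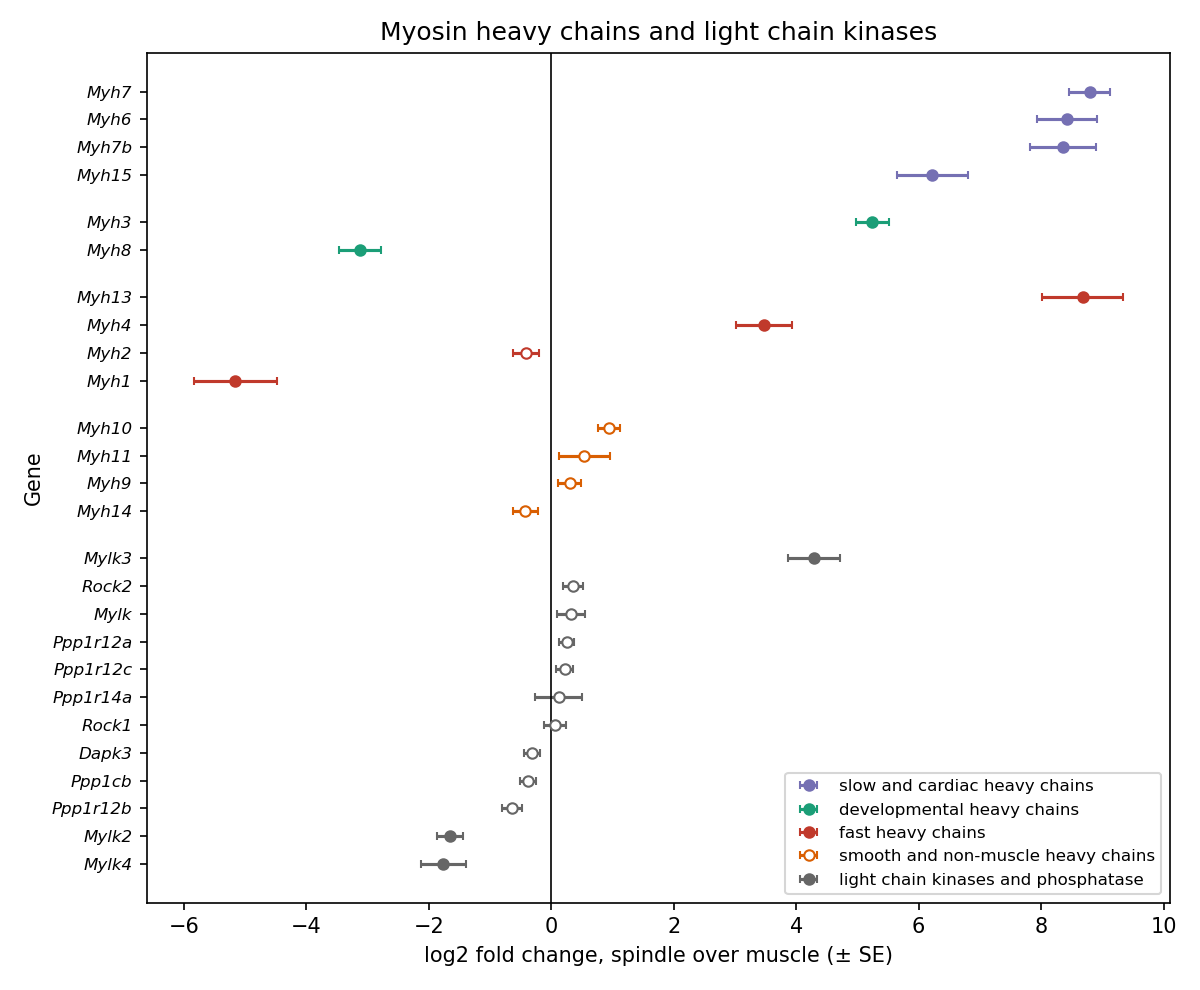
Log2 fold change, spindle over muscle, with its SE (x axis) for 14 myosin heavy chains and 12 genes of light chain kinases and phosphatase, grouped by color, where filled points were called and open points were not. The slow and cardiac heavy chains lie between 6.22 and 8.79, the fast heavy chains run from -5.16 to 8.68, and *Mylk3* stands apart from the other enzymes at 4.29.

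Other light chains of non-muscle cells, *Myl12a* and *Myl12b*, were not called (0.44 ± 0.13 and 0.96 ± 0.15, adjusted p = 0.0131 and 5.22e-05, edgeR), while DESeq2 called 1 of them higher. *Myl12b* overlaps another gene model over its exons, so its value is uncertain, and the atrial regulatory chain *Myl7* was not analysed here. Of 8 heart markers, 5 were in the table and 3 were called higher in spindle. These were *Tnnt2*, cardiac troponin T, at 7.14 ± 0.36, *Actc1*, cardiac actin, at 4.73 ± 0.24, and *Ryr2* (3.28 ± 1.01, adjusted p = 0.0239, edgeR). *Ryr2* had 161 reads in spindle, 2 to 60 in each library, against 20 in muscle, and its groups overlapped. Only 2 heart markers were called by limma-voom, with the filterByExpr filter, or without spindle of mouse 10 or 13 or muscle of mouse 9, 11 or 13. The heart markers *Tnni3* and *Nppb* stayed at 35 and 12 reads in spindle, against 23 and 1 reads in muscle.

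The genes whose pattern was most like a member's were ranked by Pearson's r of log2 CPM over the 11 libraries, among 10787 genes, as a description. All r over both tissues are dominated by the difference between them. For *Myl3* the closest gene was *Tnnc1*, slow and cardiac troponin C (r = 0.998), which was also the closest by deviations from the group means (r = 0.959), followed by *Fam240b* and *Myh13* at 0.995. For *Myl2* these were *Fzd10* (0.997), *Tpm3* (0.996), which encodes slow tropomyosin, and *Slc2a1* (0.995). For *Myl4* they were *Tpm3* and *Nbl1*, both at 0.994, and *Fzd10* at 0.992. The gene closest to *Mylpf* by log2 CPM was *Chordc1* (0.986), and *Mylpf* was among the 3 closest to *Myl1* (0.962). By deviations from the group means the closest gene was *Rpl3* for *Myl2* (0.932) and *Tnfaip8* for *Myl4* (0.968). None of the genes named for *Myl2* and *Myl4* by log2 CPM was among their 3 closest by deviations. *Chordc1* stayed among the 3 closest to *Mylpf* (0.931), and *Mylpf* was not among those of *Myl1*. Over the 5 spindle libraries alone, *Myl3* varied with *Myl2* (r = 0.96) and *Myl4* (r = 0.93), and about as closely with *Myl1* (r = 0.91) and *Myl6* (r = 0.90), and *Myl6b* varied with *Myl9* (r = 0.88) and not with *Myl3* (r = -0.52). These points share library scaling and are few.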

How the data were processed

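RNA-seq libraries of polyadenylated RNA (single-end reads) were analysed from the read counts per gene as deposited. The authors used STAR 2.4.2a on build GRCm38, kept unique alignments and counted them per gene within the UTAP pipeline. Each gene of the deposited table has 5 or more reads in 1 or more libraries. The authors' normalized values (signal) and log2 regularized values, and the columns of their own comparison by DESeq2 1.16.1 (log2 fold changes and deposited p-values), were not used. Counts per library ranged from 8354260 to 23430654, and intervals cover counting error only.

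Counts were scaled by TMM and tested by the quasi-likelihood test of edgeR 4.0.16 (R 4.3.3) over all 22384 genes, with no term for the mouse. P-values were adjusted by Benjamini-Hochberg, and a call needed a mean normalized count of at least 5, an adjusted p of at most 0.05 and a log2 fold change of at least 1 in size. The test was checked on simulated counts. RPKM used exonic lengths of GENCODE vM21, which also gave positions. This release differs from the one used by the authors. Promoter windows were those of RefSeq (GRCm38.p6), matched for 9 of 9 members by symbol. The windows of *Myl2* lay 8227 and 7762 bases from the GENCODE starts and were not shown.

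Alternatives were RLE size factors, library size alone, mitochondrially encoded genes left out, the median gene set to 0, DESeq2 1.42.0, limma-voom (limma 3.58.1), the filterByExpr filter, the mouse as a replicate block, each library left out, spindle 16 and muscle 12 left out, spindle 10, 12 and 13 left out, adjusted p alone, and shares of reads. Setting the median gene to 0 shifted the fold changes and kept the p-values of the main test. The mouse numbers pair the libraries by design, as both tissues came from each mouse. Mouse 11 had no spindle library here, so the fit with the mouse as a replicate block left out its muscle library. The deviations of same-mouse libraries from their group means correlated at 0.08, 0.31, 0.17, 0.26 and 0.29 for mice 9, 10, 12, 13 and 16, over 12557 genes.

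The text names the 9 members, from each other list at most 4 genes with the smallest adjusted p, with further list genes chosen after their values were seen, and the 3 genes most like *Myl1*, *Myl2*, *Myl3*, *Myl4* and *Mylpf* whose normalized count averaged 50 or more. The members and lists were chosen with earlier results of these data known.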

Additional observations from a re-analysis of the deposited data

Results flagged for a closer look

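Among 18 groups of light chain values (9 genes in both tissues), 2 held a library far from the rest, where chance gives about 1 in 20 groups for values that vary continuously. The normalized count of *Mylpf* in spindle of mouse 13 was 95660, from 73202 reads, against 57670 to 63630 in the other 4 spindle libraries, so that its gap to the nearest of them was 0.843 of the group's range. The normalized count of *Myl2* in muscle of mouse 12 was 1.087, which is a single read, against 0 in the other 5 muscle libraries. With all other values at 0 any read sets this library apart, so that rate does not apply to it.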

How the results depend on the processing

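No member changed direction under the 22 alternatives for fold changes. *Myl2* (9.13 to 11.47), *Myl3* (8.69 to 9.48), *Myl4* (6.04 to 6.62), *Myl6b* (4.67 to 5.28) and *Myl10* (8.13 to 9.33 on the log2 scale) were called higher in all 22. *Myl9* (0.73 to 1.34) and *Mylpf* (-1.23 to -0.64) crossed the minimum fold change, and *Myl1* (-1.06 to -0.46) did so with the median gene set to 0, at -1.06, where *Myl9* was 0.73 and *Mylpf* -1.23. *Myl6* ranged from 0.36 to 0.95. The members called lower, 0 in the report, were 2 with the median gene set to 0, 2 by adjusted p alone, 1 without spindle 10, 12 and 13, and 0 to 1 when each library was left out in turn.

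Of all genes, 2529 were called higher and 403 lower. The number called higher was 1591 without spindle 10, 12 and 13 and 5290 by adjusted p alone. The number called lower was 140 with library size alone, 1084 with the median gene set to 0 and 3353 by adjusted p alone. With the mouse as a replicate block, which also left out muscle of mouse 11, 2281 genes were called higher and 416 lower. In that fit 5 members were higher and 0 lower, and *Myl9* was the only member to lose its call. Without muscle of mouse 11 and with no block, *Myl9* (0.93) also lost its call, so the loss cannot be credited to the pairing. Of the list genes named, *Tagln* and *Tnnt3* lost theirs in the block fit. Without muscle of mouse 11 and with no block, *Tagln* also lost its call, and the fast fiber list likewise had 4 genes called lower. Without division by length, spindle shares were 90.7% for *Myl1*, 0.496% for *Myl2*, 3.10% for *Myl4* and 2.09% for *Myl6*. Depth limits the muscle values of *Myl2*, *Myl3* and *Myl10*, which rest on 1, 20 and 62 reads. The causes were not tested.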
